A study of Homo sapiens with 16 samples.

Results

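The ID proteins and the HES and HEY repressors are helix-loop-helix regulators that act against other transcription factors. The 7 genes described here, ID1, ID2, ID3, ID4, HES1, HES4 and HEY1, were chosen by name from 35052 measured genes, and 6 of them were among the 17559 genes that passed the filter on low counts. ID4 did not pass. The reads of all annotated transcripts of each gene were summed in each library.

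The cells were K562, an established human leukaemia line with erythroid features that can take on features of megakaryocytes, the cells that make platelets. They carried no engineered change and were labelled wild type. Cells were exposed to 25 nM PMA, a phorbol ester that activates protein kinase C. RNA was sequenced after ribosomal RNA depletion at 0.5 and 1.5 h, at 3 and 6 h, and at 24, 48 and 72 h. Cells at 0 h were the untreated control, and the medium was replaced after 24 and 48 h. Each of the 8 time points had 2 libraries, 16 in all. The labels do not say whether the 2 came from separate cultures, so the p-values below measure only the spread between these libraries.

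ID proteins have a helix-loop-helix domain without the basic region that touches DNA. They pair with E proteins such as TCF3, TCF4 and TCF12 and keep them off DNA, including the pairs that E proteins form with TAL1 or LYL1 in blood cells, and their genes are classic targets of BMP and SMAD signalling. HES and HEY proteins bind DNA and repress transcription, HES1 through Groucho/TLE corepressors, and several of their genes are classic targets of the Notch pathway through the DNA-binding protein RBPJ.

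Because RBPJ reaches HES genes through a short core motif, the promoters of HES1 and HES4 are shown. They were taken from a table of RefSeq promoters on GRCh38.p14, in which 6 of the 7 members were matched (HEY1 was not). Capitals mark matches of TGGGAA, the RBPJ core, searched on both strands in the 250 bases before each RefSeq start. The first sequence is chr3:194135898-194136144, plus strand, and the second is a 30-base stretch of the HES4 promoter at chr1:1000156-1000185, minus strand, which crosses the start of HES4 at 1000172 in the gene models used for the counts.
HES1: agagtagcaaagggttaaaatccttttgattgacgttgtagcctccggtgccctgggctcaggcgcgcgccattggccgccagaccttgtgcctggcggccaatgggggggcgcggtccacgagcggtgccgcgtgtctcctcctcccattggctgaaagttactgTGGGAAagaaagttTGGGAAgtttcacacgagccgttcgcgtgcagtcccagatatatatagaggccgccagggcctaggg
HES4: ctggggcgagtgTGGGAAagaatgcggagc
In HES1 the matches lay at -84 to -79 and -70 to -65 relative to the RefSeq start, and in HES4 the match lay at -76 to -71. The HES1 promoter also held 3 matches of CACNAG, the N box that HES proteins bind, and HES4 held 0. None of these matches overlapped a match of the other motif. Of 35116 promoter windows of this length, 20.8% held at least 1 TGGGAA, 2.9% held at least 2, and 32% held at least 1 CACNAG. Neither ID1, ID2, ID3 nor ID4 held a TGGGAA in this window. Among related genes, HEYL held 2 and HEY2 held 1, while HES6, HES7, BHLHE40 and the Notch target NRARP held 0. A match is a description of letters and was not read as a bound site.

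Library totals ranged from 27285773 to 54056289 estimated reads. The gap between transcript length and effective length stands for the mean fragment length. It was 210 to 221 nt in the replicate 1 libraries. In those of replicate 2 it was 199 nt at 0 h and 229 to 248 nt later. Some values without 0 h replicate 2 are therefore given, but not every value that differed without it. Levels are given as CPM (reads relative to the TMM-scaled library size) within a gene and as TPM (abundance corrected for transcript length) between genes. Fold changes and adjusted p-values are from edgeR's quasi-likelihood test over all tested genes, and a gene was called changed at an adjusted p under 0.05. All comparisons against 0 h share the same 0 h libraries. In bulk RNA, fewer cells of a type and less RNA per cell cannot be told apart. Among cell type markers, the summed TPM of 9 erythroid-like genes was 4860 to 5340 at 0 h and 3380 to 4590 at 72 h. That of 7 megakaryocyte genes was 46.8 to 79.8 at 0 h and 1760 to 1770 at 72 h. Most of the latter came from THBS1 (1230 ± 17.9 TPM) and ITGB3 (457 ± 42.8), while ITGA2B (log2 fold change 0.10, edgeR adjusted p = 0.432) and GP1BB (0.42, adjusted p = 0.774) did not pass the test at 72 h and the defining megakaryocyte genes GP9 and PF4 had at most 1 read in any library. Summed monocyte and macrophage markers (6 genes) went from 155 to 179 TPM at 0 h to 267 to 330 at 72 h. CD68 carried most of this rise (78.5 to 232 TPM), and 2 of the 6 genes were called higher at 72 h and 2 lower, LYZ (-0.59) and FCGR1A (-3.65). For 6 lymphocyte genes the same ranges were 24.7 to 36.8 and 62.4 to 77.5. The part of these shifts in the results below was not tested.

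The members did not move as a block. ID1 and ID3 fell within the first hours and came back, ID2 rose only in the comparisons from 24 h on, HES1 fell at 3 h after HEY1 had begun to rise at 1.5 h, and HES4 was called lower from 24 h. All 6 tested members changed over the course, as did 82.9% of all tested genes. Against 0 h, 0 of 6 members were called at 0.5 h (0.171% of all tested genes), with 3 at an unadjusted p under 0.05 in edgeR (ID1, ID3 and HES4) and 1 called by DESeq2 (ID3). At 1.5 h, 3 members were called against 17.1% of all genes, at 3 h 4 against 42.0%, and at 6 h 4 against 57.2%. At 24 h 5 were called against 58.3%, at 48 h 5 against 54.3%, and at 72 h 5 against 58.6%. From 3 h on, a call was thus common among all genes, and the time and size of each change describe the members better than the count. The median log2 fold change of the 6 members was -0.81 at 6 h and 0.13 at 72 h, beside 0.00 and -0.03 for all tested genes.

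**Figure D1:**
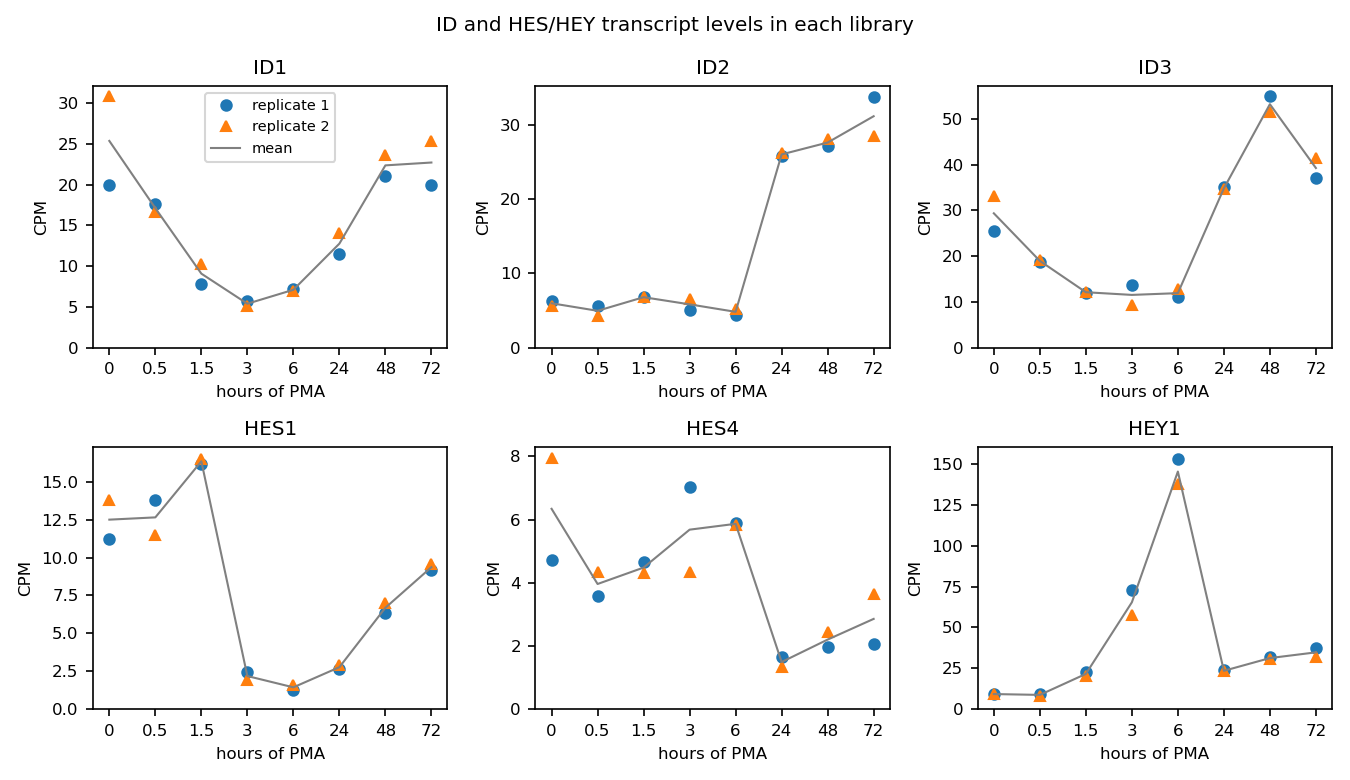
CPM of each tested member in every library; the time points are evenly spaced on the x axis, each vertical axis starts at 0 and has its own scale, circles are replicate 1, triangles replicate 2 and the line is the mean of the pair. ID1 and ID3 dip between 1.5 and 6 h, ID2 steps up between 6 and 24 h, HES1 drops between 1.5 and 3 h, and HEY1 peaks at 6 h with 153 and 138 CPM.

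ID1 lies on chromosome 20 at 31605283 to 31606515 (GRCh38, plus strand). The libraries of replicates 1 and 2 held 19.9 and 30.8 CPM at 0 h, 17.6 and 16.6 at 0.5 h, 7.84 and 10.3 at 1.5 h, then 5.70 and 5.06 at 3 h. Later they held 7.21 and 6.97 CPM at 6 h, 11.5 and 14.0 at 24 h, 21.1 and 23.6 at 48 h, then 20.0 and 25.4 at 72 h. Every library from 0.5 to 24 h was below both 0 h libraries, and those of 48 and 72 h fell inside the range of the 0 h pair. ID1 fell 4.71-fold by 3 h (log2 fold change -2.23, SE 0.21, edgeR adjusted p = 1.58e-06). Without 0 h replicate 2 the value was -1.89 at 3 h and -1.14 at 1.5 h. The change was already called at 1.5 h (-1.48, adjusted p = 3.20e-04) and was -0.99 at 24 h (adjusted p = 7.16e-04), or -0.64 without 0 h replicate 2, where it was still called. At 48 and 72 h the log2 fold changes were -0.18 and -0.16 (adjusted p = 0.454 and 0.494), which did not pass. The return was called in steps, 0.85 from 6 to 24 h and 0.81 from 24 to 48 h (adjusted p = 0.00357 and 0.0136).

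ID3, on chromosome 1 at 23557918 to 23559794 (minus strand), also fell early and came back later. Its libraries held 25.5 and 33.2 CPM at 0 h, 18.8 and 19.1 at 0.5 h, 12 and 12.2 at 1.5 h, 13.7 and 9.33 at 3 h, then 11.1 and 12.7 at 6 h. The later pairs held 35.0 and 34.6 CPM at 24 h, 54.9 and 51.5 at 48 h, then 37.0 and 41.5 at 72 h. All 8 libraries from 0.5 to 6 h were below the 0 h pair, and all 6 from 24 h on were above it. The fall was 2.54-fold at 3 h (log2 fold change -1.34, SE 0.16, edgeR adjusted p = 1.73e-05). By 48 h ID3 was 1.81-fold above 0 h (0.86, adjusted p = 3.69e-04). The value at 24 h was 0.25 (adjusted p = 0.191), which became 0.45 and was called without 0 h replicate 2. The call at 72 h (0.42, adjusted p = 0.034) was lost without 0 h replicate 1 (0.24, adjusted p = 0.251) and without 72 h replicate 2 (0.33, adjusted p = 0.149). It was lost in 6 of 28 alternatives, among them scaling to total counts (0.26, adjusted p = 0.124) and a fit of these time points alone (0.38, adjusted p = 0.126). At 48 h ID3 was thus above its starting level where ID1 came back to it, but the difference between the 2 genes was not tested.

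ID2, on chromosome 2 at 8678845 to 8684453 (plus strand), overlaps the antisense gene ID2-AS1. The counting is not stated to use strand, so reads of the pair may be mixed. Libraries held 6.32 and 5.63 CPM at 0 h, 5.65 and 4.27 at 0.5 h, 6.81 and 6.78 at 1.5 h, 5.07 and 6.59 at 3 h, then 4.40 and 5.24 at 6 h. They then held 25.8 and 26.3 CPM at 24 h, 27.2 and 28.1 at 48 h, then 33.8 and 28.6 at 72 h. The lowest library from 24 h on was well above the highest of the first 6 h. No change up to 6 h passed the test, with log2 fold changes between -0.31 and 0.18, although scaling the libraries to total counts gave a called -0.68 at 6 h (adjusted p = 0.00508) and removing the GC trend a called -0.40 (adjusted p = 0.0355). ID2 was 4.35-fold above 0 h at 24 h (2.12, SE 0.16, edgeR adjusted p = 8.52e-08) and 5.22-fold at 72 h (2.38, SE 0.16, adjusted p = 2.42e-08). The step from 6 to 24 h was 2.43 (adjusted p = 6.01e-08), while the next step, 0.09, did not pass (adjusted p = 0.759).

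ID4, on chromosome 6 at 19837386 to 19840684 and overlapping the antisense gene AL022068.1, had 1 read in 72 h replicate 1 and 0 in the other 15 libraries. A floor of 3 reads corresponds to 0.0623 to 0.128 CPM in these libraries, so levels under that floor were not detectable.

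HES1, on chromosome 3 at 194136145 to 194138732 (plus strand), represses its own gene as well as others. Its libraries held 11.2 and 13.8 CPM at 0 h, 13.8 and 11.5 at 0.5 h, 16.2 and 16.5 at 1.5 h, 2.47 and 1.89 at 3 h, then 1.28 and 1.59 at 6 h. Thereafter they held 2.65 and 2.88 CPM at 24 h, 6.37 and 7 at 48 h, then 9.17 and 9.56 at 72 h. The pair at 1.5 h lay above both 0 h libraries, and every library from 3 h on lay below them. The value at 1.5 h (log2 fold change 0.39, edgeR adjusted p = 0.106) did not pass, but was called at 0.45 once a trend with GC content was removed (adjusted p = 0.0389). From 1.5 to 3 h HES1 fell 7.46-fold (-2.90, SE 0.18, adjusted p = 5.06e-08), and at 6 h it was 8.63-fold below 0 h (-3.11, SE 0.19, adjusted p = 8.31e-09). It then rose in steps of 0.94 to 24 h and 1.27 to 48 h (adjusted p = 0.00121 and 2.52e-04). The last step, to 72 h, was 0.49 and did not pass (adjusted p = 0.214). At 72 h HES1 was still lower than at 0 h (-0.42, adjusted p = 0.0387), a call that was lost in 16 of 28 alternatives, with values between -0.57 and -0.25. The lowest size came without 0 h replicate 2 (adjusted p = 0.271).

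HES4, on chromosome 1 at 998962 to 1000172 (minus strand), is a relative of HES1 that mice lack. With 74.1% GC it had the highest GC content of the members. Its libraries held 4.73 and 7.95 CPM at 0 h, 3.59 and 4.33 at 0.5 h, 4.65 and 4.31 at 1.5 h, 7.02 and 4.34 at 3 h, then 5.89 and 5.84 at 6 h. They held 1.65 and 1.33 CPM at 24 h, 1.95 and 2.45 at 48 h, then 2.06 and 3.65 at 72 h. The 6 late libraries were all below the 10 earlier ones, apart from 72 h replicate 2, which came above the lowest of them. HES4 was 4.28-fold lower at 24 h (log2 fold change -2.10, SE 0.32, edgeR adjusted p = 8.24e-05). The step from 6 to 24 h was -1.99 (adjusted p = 1.65e-04). HES4 remained called at 48 h (-1.52, adjusted p = 9.72e-04) and 72 h (-1.15, adjusted p = 0.00545). Without 0 h replicate 2 the values at 24 and 48 h were -1.68 and -1.10. The call at 72 h was lost without 0 h replicate 2 (-0.73, adjusted p = 0.0844) or without 72 h replicate 1 (-0.79, adjusted p = 0.0678), and the value was -0.49 with the GC trend removed. At 6 h the value was -0.11, which did not pass, and with the GC trend removed it was 0.71 and called higher (adjusted p = 0.00395), so its direction at 6 h rests on that choice.

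HEY1, on chromosome 8 at 79764010 to 79767863 (minus strand), encodes a repressor that can pair with HES1. Its libraries held 9.24 and 9.17 CPM at 0 h, 9.32 and 8.06 at 0.5 h, 22.7 and 20.4 at 1.5 h, 72.9 and 57.9 at 3 h, then 153 and 138 at 6 h. The later pairs held 23.7 and 23.2 CPM at 24 h, 31.8 and 30.7 at 48 h, then 37.4 and 32.1 at 72 h. All 12 libraries from 1.5 h on were above every library of 0 and 0.5 h. HEY1 rose 2.34-fold by 1.5 h (log2 fold change 1.23, SE 0.13, edgeR adjusted p = 3.72e-05), 7.11-fold by 3 h (2.83, adjusted p = 1.50e-09) and 15.8-fold by 6 h (3.98, SE 0.14, adjusted p = 2.84e-11). It fell 6.21-fold from 6 to 24 h (-2.64, adjusted p = 2.29e-09), to a level 2.54-fold above 0 h, and was 3.77-fold above 0 h at 72 h (1.92, adjusted p = 2.23e-08). The step from 24 to 48 h was 0.42 (adjusted p = 0.0348).

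**Figure D2:**
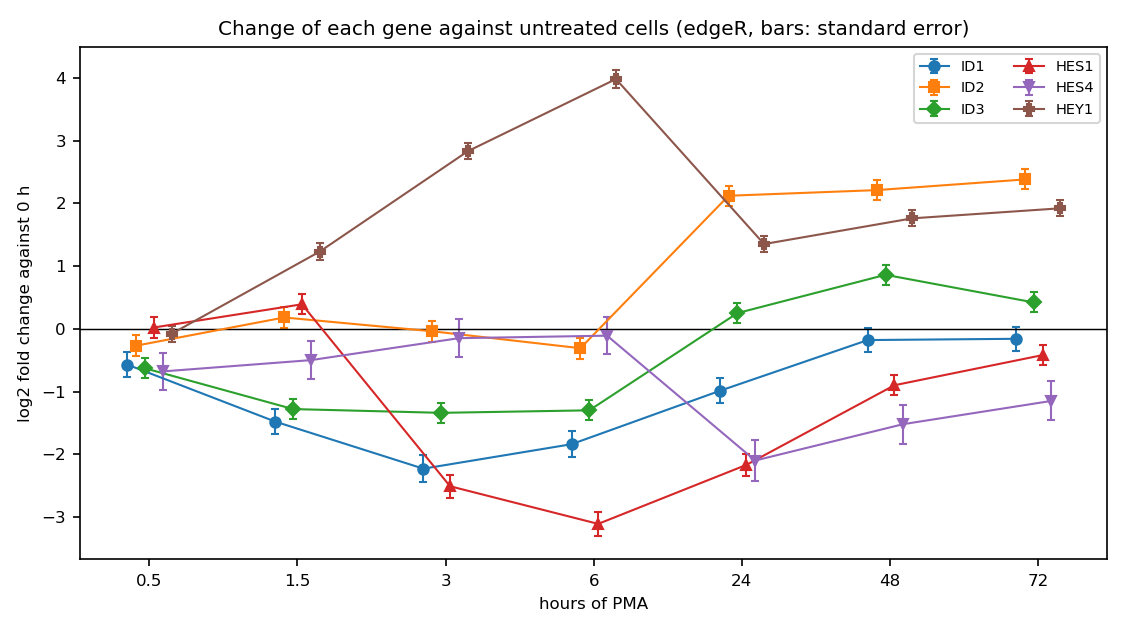
Log2 fold change of each tested member against 0 h (y axis) at each later time point (x axis, evenly spaced), with bars for the standard error from edgeR. HEY1 reaches 3.98 and HES1 -3.11 at 6 h, and the ID2 curve leaves the zero line between 6 and 24 h.

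Between neighbouring time points, 3 of 6 members were called from 0.5 to 1.5 h (5.77% of all tested genes): HEY1 rose by 1.31, and ID1 and ID3 fell by 0.91 and 0.64 on the log2 scale. From 1.5 to 3 h, 3 were called (25.1% of all genes), ID1 and HES1 lower and HEY1 higher by 1.60. From 3 to 6 h, 2 were called (41.2%), HES1 lower by a log2 fold change of -0.60 and HEY1 higher by 1.15. From 6 to 24 h all 6 were called (56.6%): ID1, ID2, ID3 and HES1 rose while HES4 and HEY1 fell. From 24 to 48 h, 4 were called higher (15.0%; 8.88% of all genes were called higher), ID1, ID3, HES1 and HEY1. From 48 to 72 h edgeR called 0 of 6 (1.47% of all genes) and DESeq2 also 0, with ID3 (-0.44) and HES1 (0.49) at an unadjusted p under 0.05. Leaving out 1 library brought the count down to 1 in the steps that ended at 1.5, 6 and 48 h.

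The order of the members by TPM changed with time. At 0 h it ran from ID3 (54.0 and 62.5 TPM) and ID1 (38.0 and 53.0) through HES1 (13.0 and 14.5), HES4 (9.73 and 14.3) and ID2 (10.7 and 11.9) to HEY1 (9.28 and 7.03). HES4 overlapped both HES1 and ID2 there, HES1 lay above ID2, and the other neighbours did not overlap. At 6 h HEY1 led with 115 and 101 TPM, above ID3 (18.6 and 19.4), ID1 (10.9 and 9.57), HES4 (9.15 and 8.37), ID2 (7.51 and 5.66) and HES1 (1.19 and 1.41), with no overlap. At 72 h the order was ID3 (77.1 and 88.0 TPM), ID2 (53.0 and 49.7), ID1 (37.8 and 49.4), HEY1 (31.4 and 28.5), HES1 (10.7 and 11.6) and HES4 (4 and 7.33). No pair overlapped, though the lower ID2 library was close to the higher ID1 library.

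The estimated shares of reads between transcripts differed between time points in HEY1, ID1, HES4 and HES1. Of the estimated HEY1 reads, the coding transcript HEY1-202 took 53.6 and 43.9% at 0 h, 76.3 and 69.2% at 3 h, 78.0 and 73.1% at 6 h, then 60.2 and 62.8% at 72 h. The other long coding transcript, HEY1-201, took 36.9 and 51.8% before treatment, against 13.8 and 16.3% at 6 h. Thus the 3 and 6 h libraries lay outside the range of the 0 h pair for both transcripts. ID1-201, as long as the whole gene at 1233 nt, took 18.9 and 16.1% of ID1 reads at 0 h, 23.2 and 25.3% at 3 h, then 24.4 and 21.1% at 6 h. Its share was 13.9 and 10% at 1.5 h and 14.9 and 13.8% at 24 h, so it did not move one way. The rest went to the spliced transcript ID1-202 of 983 nt. HES4-201 took 28.8 and 33.9% of HES4 reads in untreated cells, 44.9 and 46.6% by 24 h, then 25.2 and 28.8% by 72 h. HES1-202, which keeps an intron, took 4.53 and 4.03% of HES1 reads at 0 h and 20.2 and 9.36% at 3 h. Its share was 4.1 and 13.1% at 6 h and 12.7 and 9.61% at 24 h. The 3 h shares rest on 18.2 and 5.4 estimated reads. In ID2, the transcript ID2-202 took 6.0 estimated reads in 0 h replicate 1 and 67.7 in replicate 2, which bears on the TPM of that pair. These shares are estimates by the quantification program for transcripts that overlap over most of their length, and no test was run on them.

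**Figure D3:**
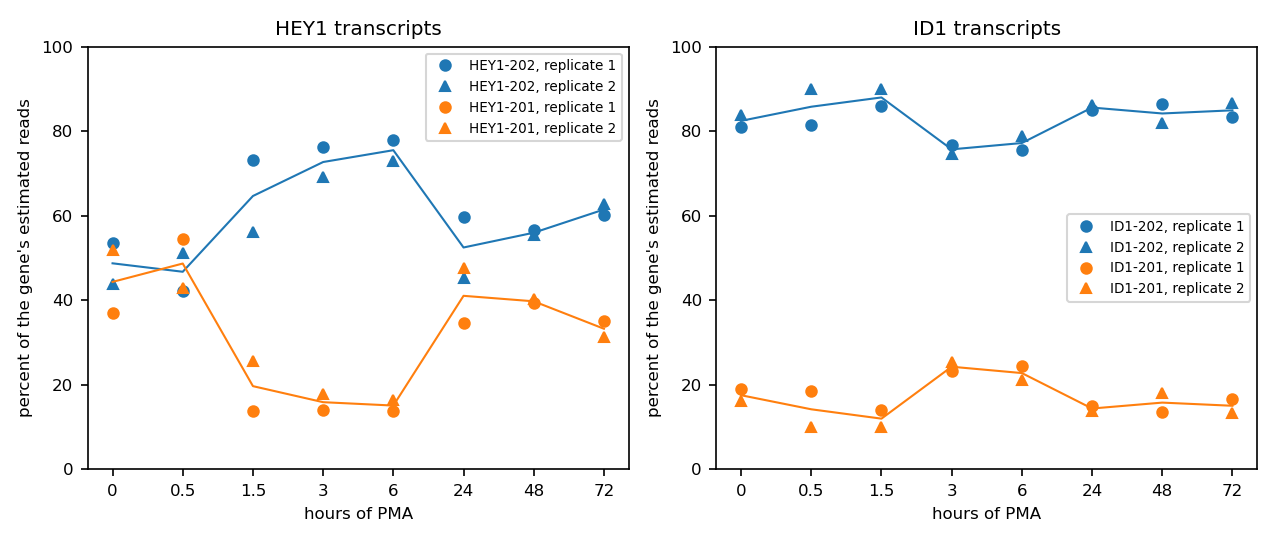
Percent of a gene's estimated reads (y axis) assigned to its main transcripts in every library, for HEY1 (left) and ID1 (right); circles are replicate 1, triangles replicate 2 and lines join the means, with time points evenly spaced. HEY1-202 holds 73.1 to 78.0% at 6 h against 43.9 to 53.6% at 0 h.

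Over the 16 libraries, the log2 CPM of ID1 and ID3 had a Pearson r of 0.84 and that of ID2 and ID3 an r of 0.81. For HES1 and HEY1 r was -0.80, and for ID2 and HES4 it was -0.85. The libraries of a time point share that time point, so these values describe 8 time points rather than 16 independent samples. Among 10924 protein-coding genes averaging 5 CPM or more, the course most like that of HEY1 was that of ANKRD10 (r = 0.991), followed by MYO7A (0.982) and SDC4 (0.975). The nearest to ID2 were CKLF and PROCR (both 0.985) and KCNK3 (0.984), and to ID3 PITX1 (0.975), ACP2 (0.967) and RXRA (0.963). ID1 was nearest to SDHAF1 (0.950), ATG16L2 (0.938) and CISH (0.933), and HES1 to RGS3 (0.957), HERPUD1 (0.938) and NUDT16 (0.935). HES4 was nearest to TYRO3 (0.940), MDK (0.937) and IQGAP3 (0.934).

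Of the 6 E proteins and blood partners that ID proteins act on, directly or through E proteins, 1 was called higher and 4 lower at 6 h (27.8% of all tested genes were called higher and 29.4% lower). By 72 h 2 were higher, TAL1 and TAL2, and 1 lower, TCF3 (31.7 and 26.9% of all genes). The list's median log2 fold change at 6 h was -0.34, beside 0.00 over all tested genes. LYL1 fell from 126 ± 11.4 TPM (SD, n = 2) at 0 h to 14.2 ± 1.30 at 6 h (log2 fold change -2.84, edgeR adjusted p = 8.77e-09), and was back at 125 ± 27.2 TPM at 72 h. TCF4 fell at 6 h by 2.13 on the log2 scale (adjusted p = 1.95e-09) and was at -0.21 at 72 h (adjusted p = 0.0969). TCF3 was not called at 6 h (0.26, adjusted p = 0.115) but was called lower at 24, 48 and 72 h (-0.57, -0.57 and -0.78). TAL1 fell to 55.7 ± 6.34 TPM at 3 h from 105 ± 13.2 and stood at 118 ± 8.35 at 72 h. TAL2, a low-level relative of TAL1, was called higher at 6 h, at 0.813 ± 0.00229 CPM against 0.192 ± 0.229 at 0 h. In total, the list held 470 to 526 TPM at 0 h and 271 to 287 at 6 h, when the 3 detected ID genes were at or near their lowest.

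Of 10 other HES and HEY relatives, 7 were tested. At 72 h 4 were called higher and 1 lower (31.7 and 26.9% of all tested genes), and at 6 h 2 were higher and 1 lower (27.8 and 29.4%). HES6, which can act against HES1, had 62.7 ± 15.4 TPM in untreated cells, 9.37 ± 1.34 by 6 h and 9.52 ± 1.23 by 24 h (log2 fold change at 24 h -2.68, edgeR adjusted p = 6.93e-08). BHLHE40, a stress- and clock-linked repressor, rose from 39.4 ± 3.94 TPM to 523 ± 15.8 at 3 h (3.93, adjusted p = 2.79e-10). HEY2, a close relative of HEY1, had 0.110 ± 0.0259 CPM in untreated cells, 1.02 ± 0.112 by 6 h and 3.73 ± 1.30 by 72 h, and was called from 6 h on. HES7 was called from 24 h, at 4.11 ± 0.631 TPM against 0.511 ± 0.260 at 0 h. BHLHE41, without a read at 0 h, was at least 37.4-fold higher by 72 h (3.53 ± 0.174 CPM against a floor of 3 reads per library, adjusted p = 2.08e-06). HES2 was called lower at 24 h alone (-0.65, adjusted p = 0.0445). Of the 5 tested genes of the Groucho/TLE family, 4 were called lower at 6 h (TLE2, TLE3, TLE4 and TLE6) and 0 higher. The largest of these by fold was TLE6, at -2.32 (adjusted p = 0.00495), a low gene whose 0 h pair differed widely (0.891 ± 0.652 CPM against 0.174 ± 0.00443 at 6 h), while the most abundant, TLE5, went from 188 ± 6.20 to 153 ± 3.44 TPM without a call (adjusted p = 0.623). At 72 h 1 was called higher, TLE2, and 1 lower, TLE3.

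In the Notch pathway, all 4 receptors were called higher at 72 h on read counts (31.7% of all tested genes). NOTCH3 was called from 1.5 h on, NOTCH1 from 3 h and NOTCH2 from 6 h. By TPM, NOTCH3 held 4.29 ± 1.30 in untreated cells and 4.33 ± 1.56 by 72 h, although its count log2 fold change was 1.34 (edgeR adjusted p = 1.25e-04). NOTCH2 rose from 2.04 ± 1.50 TPM at 0 h to 11.6 ± 0.640 at 72 h (log2 fold change 3.49, edgeR adjusted p = 1.01e-07). NOTCH4, without a read at 0 h, held 0.994 ± 0.538 CPM (SD, n = 2) by 72 h, a mean at least 10.5-fold higher from libraries that differed widely (adjusted p = 0.0203). Of 5 ligands, 2 were called higher at 72 h, JAG1 and DLL1, and 3 lower, JAG2, DLL3 and DLL4 (31.7 and 26.9% of all genes). JAG1 had 0.143 ± 0.0249 TPM in untreated cells, 0.510 ± 0.197 by 24 h and 23.6 ± 2.95 by 72 h (7.64, adjusted p = 4.41e-12). JAG2, the most abundant ligand at 0 h, fell from 18.7 ± 1.44 to 10.6 ± 1.41 TPM at 72 h (-0.89, adjusted p = 3.29e-04). DLL1 had 0 reads at 0 h and its highest value at 6 h, at least 16.6-fold higher. At 72 h DLL1 held 0.104 ± 0.0292 CPM, close to the 0 h floor of 0.0943 CPM, a mean at least 1.11-fold higher.

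Among 6 genes of the Notch nuclear complex and its feedback, 4 were called higher and 1 lower at 6 h (27.8 and 29.4% of all tested genes). NRARP, a Notch-induced inhibitor of the complex, rose from 9.39 ± 0.125 TPM at 0 h to 274 ± 30.9 at 3 h (log2 fold change 5.14, edgeR adjusted p = 2.65e-11). It was 74.1 ± 3.71 TPM at 6 h and lower than at 0 h from 24 h on (-1.01 at 24 h, adjusted p = 4.45e-05). At 3 h NRARP and HEY1 were thus both high while HES1, another classic Notch target, was low. On read counts RBPJ was called higher from 3 h, by at most 0.95 at 24 h (adjusted p = 1.62e-04). Its untreated pair differed widely (59.8 ± 17.5 CPM). RBPJ abundance in TPM was 36.1 ± 7.49 in untreated cells, 35.7 ± 2.96 by 3 h and 34.8 ± 2.05 by 6 h. The 24 h pair held 48.1 ± 3.62 TPM. SPEN, a corepressor of RBPJ, was called higher only at 3 and 6 h among the comparisons with 0 h. From 92.9 ± 9.11 TPM before treatment, SPEN went to 91.4 ± 8.01 by 3 h and 113 ± 4.48 by 6 h. MAML3 was lower at 6 h (-1.77) and higher at 72 h (1.72). Of 16 tested genes that process or modify Notch, 6 were called higher and 4 lower at 6 h. At 72 h 7 were higher and 3 lower (31.7 and 26.9% of all tested genes). NUMB, an inhibitor of Notch, rose from 46.0 ± 3.12 TPM to 413 ± 9.23 at 24 h (3.12, adjusted p = 2.45e-12). LFNG, which adds sugars to Notch, went from 0.342 ± 0.152 to 12.7 ± 0.932 TPM at 3 h (5.59, adjusted p = 3.32e-09), and is named here after its values were seen. DTX1, without a read at 0 h, was at least 11.6-fold higher by 6 h, while DTX2 fell from 51.4 ± 1.56 to 17.4 ± 1.84 TPM. The gamma-secretase subunits APH1A and APH1B were called lower at 48 h, at -0.43 and -0.34.

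In the BMP pathway, which acts on ID genes, BMP6 rose from 0.284 ± 0.0451 TPM in untreated cells to 4.14 ± 0.223 by 6 h and 11.7 ± 0.154 by 48 h (log2 fold change at 48 h 5.33, edgeR adjusted p = 2.64e-10). It was called from 3 h, when ID1 and ID3 were low. Of 6 tested ligands, 3 were called higher at 72 h, BMP2, BMP6 and BMP8B, and 1 lower, GDF5 (31.7 and 26.9% of all genes). At 6 h 27.8% of all tested genes were called higher and 29.4% lower. Of 7 receptors, 1 was called higher at that time, ACVR1 (2.35, edgeR adjusted p = 2.34e-10), and 3 lower, BMPR1A, ACVRL1 and ACVR2B. At 72 h 3 were higher, BMPR2, ACVR1 and ACVRL1, and 1 lower, ACVR2B. ACVRL1 went from 1.72 ± 0.502 TPM at 0 h through 0.469 ± 0.0749 at 6 h to 9.52 ± 1.32 at 72 h. Of the 4 SMADs that carry the signal, 1 was called at 72 h, SMAD5 at 0.41, and SMAD4 was at 56.0 ± 4.82 TPM at 0 h and 56.1 ± 6.04 at 72 h. SMAD9, at 0.306 ± 0.0656 TPM at 0 h, was called higher at 1.5 and 3 h (1.21 and 1.35).

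Of 7 tested inhibitors of BMP signalling, 4 were called higher and 2 lower at 6 h (27.8 and 29.4% of all tested genes). At 72 h 5 were higher and 1 lower (31.7 and 26.9%). The list's median log2 fold change at 6 h was 1.29, beside 0.00 over all tested genes. BAMBI, a decoy receptor, rose from 13.4 ± 0.298 TPM to 123 ± 5.69 at 6 h (3.50, edgeR adjusted p = 1.51e-11). The feedback inhibitors SMAD6 and SMAD7, themselves BMP- and TGF-beta-induced, were both called lower in the 3 h comparison (-0.74 and -1.05) and in that of 6 h (-1.50 and -0.64). By 48 h both were called higher (0.63 and 3.23). FST, which binds activins and BMPs and had no read at 0 h, was at least 101-fold higher by 72 h (adjusted p = 5.90e-08). CHRD was called lower at 24 h (-1.07) at a level of 0.585 ± 0.243 TPM.

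**Figure D4:**
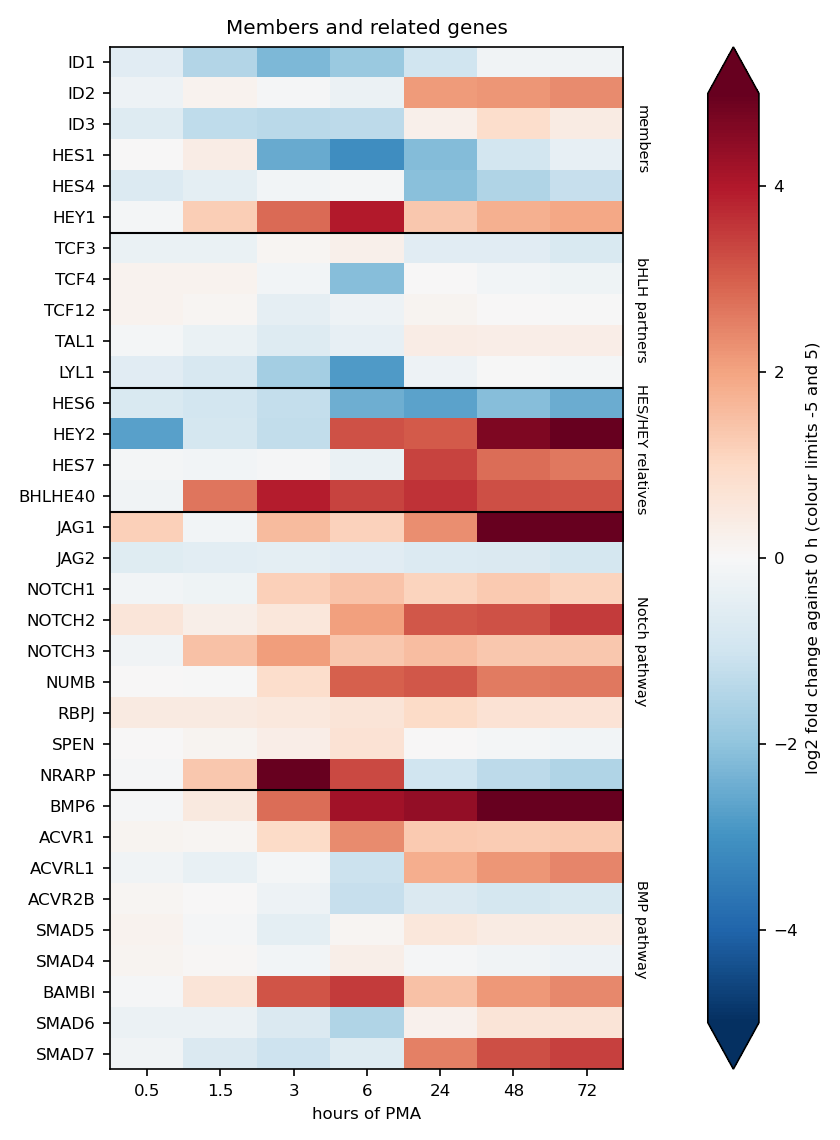
Log2 fold change against 0 h of the 6 tested members and of 27 genes from the lists, picked for display after their values were seen (rows, grouped by role), at each later time point (columns); red is higher, blue lower, and colours saturate at -5 and 5. HEY1 and NRARP are red at 3 h beside a blue HES1, and SMAD6 turns from blue at 6 h to pale red at 48 h.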

How the data were processed

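RNA sequencing tables of 16 K562 libraries, 2 at each of 8 time points of PMA, were used. Each deposited table gives, per the file headers, an estimated count of reads (which need not be whole) and a TPM value for each of 177456 Ensembl transcripts. The deposited effective lengths were used for the fragment length only. Salmon and Trim Galore 0.4.3 are named in the submitters' processing notes. Salmon's version, transcript set and bias options are not given in the sources used here.

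Transcripts were matched to genes by identifier with GENCODE 29 on GRCh38 (167027 matched, 94.1%), and 3.01 to 3.75% of reads in unmatched transcripts were left out. Sums over each gene's transcripts were rounded. The test used edgeR 4.0.16 (R 4.3.3) with TMM factors (0.854 to 1.14), filterByExpr, all 8 time points in one quasi-likelihood fit without a block, and Benjamini-Hochberg adjustment over 17559 genes. Each group is given by its 2 values or as mean ± SD. The common coefficient of variation was 0.123, with 8 residual degrees of freedom. In a simulation of 72 h against 0 h over 17559 genes, of which 200 were changed, 62% of 2-fold and 92% of 4-fold changes were recovered, with 7 false among 161 calls. In the data 58.6% of genes were called at 72 h, so these rates need not hold for the reported fit. An exact permutation test of 2 against 2 libraries cannot reach p = 0.05. Floors cover counting error only. Standard errors are from the edgeR fit and include its estimate of the spread between libraries.

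The members and lists were chosen with earlier results of these data known. All members are described. An item of the marker lists is not reported here. From each list the text takes the called gene with the largest change and the gene with the highest mean TPM. It also takes genes called against the list's median, with some others where a count was 5 or fewer. The alternatives were DESeq2 1.42.0 and its size factors, total-count scaling, 2 filters on low counts, length-scaled counts from TPM, the replicate number as a block, removal of a GC trend (alone and with the block), fits of 2 time points only, stricter calls, and each library left out.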

Additional observations from a re-analysis of the deposited data

How the results depend on the processing

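Of the 1174 alternative log2 fold changes of members against 0 h, 1126 stayed on their side of the threshold, 34 lost a call, 12 gained one, and 2 became called with the opposite sign. Values that were not called could change sign, as those of HES4 at 0.5, 1.5 and 3 h and of ID1 at 48 and 72 h did under some alternatives. Both reversals were HES4 at 6 h, -0.11 in the reported fit, which became 0.71 with the GC trend removed and 0.71 with the replicate block and the GC trend removed. Log2 fold changes followed GC content at 0.5 h (r = -0.77 over the more abundant genes) and 1.5 h (-0.43), and less later (-0.17 to -0.03). Total-count scaling moved the median of all genes to between -0.35 and -0.12 from 1.5 h on, and the share of higher calls at 3 h from 51.2 to 27.4%. It lowered the share at 1.5 h from 52.9 to 31.9%, at 6 h from 48.6 to 30.3%, at 24 h from 54.4 to 38.7% and at 48 h from 55.7 to 44.3%.

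The number of members called depended on the setting as follows, and the cause was not tested. At 0.5 h it was 0, but 1 with DESeq2, 2 without a low-count filter, and 0 to 3 with 1 library left out (3 without 0 h replicate 1, which also moved the calls over all genes from 30 to 3669). At 1.5 h a test against a 2-fold change left 0 of 3 (and 237 of 3003 calls over all genes). The same test left 2 of 5 at 48 h (2948 of 9529 over all genes), and at 72 h it left 2 of 5 (3435 of 10294). At 72 h the count was 3 when only the libraries of both time points were fitted, 3 at an adjusted p under 0.01, and 3 to 5 with 1 library left out. From 0.5 to 1.5 h it was 0 for the 2-fold test, 1 at an adjusted p under 0.01 and 1 to 3 with 1 library left out. From 3 to 6 h it was 1 with DESeq2, without a low-count filter, when only those libraries were fitted and at an adjusted p under 0.01, 0 for the 2-fold test, and 1 to 2 with 1 library left out. From 24 to 48 h it was 0 for the 2-fold test, 1 at an adjusted p under 0.01 and 1 to 4 with 1 library left out. Where a group keeps 1 library, that library is assumed to vary like the others.

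Gene levels of same-numbered libraries did not deviate together throughout (r -0.118 to 0.211 over 28 pairs of time points, above 0.1 in 14). The numbers were therefore not taken as pairs, although from 0.5 h on the mean fragment length was greater in every replicate 2 library. With the replicate block the members called were 0, 3, 4, 4, 5, 5 and 5 from 0.5 to 72 h against 0 h, as without it. The replicate block with the GC trend removed called 1 member from 48 to 72 h, where the reported fit called 0.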
